A study of Mus musculus with 4 samples.

Results

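The 6 genes described here, chosen by symbol from the 32285 genes counted, were the colony-stimulating factor ligands Csf1 and Il34 and the receptor genes Csf1r, Csf2ra, Csf2rb and Csf3r. All 6 were found in the count files. Csf1 (ENSMUSG00000014599) lies on chromosome 3 (107741048 to 107760469, minus strand), Il34 (ENSMUSG00000031750) on chromosome 8 (110741829 to 110805924, minus strand) and Csf1r (ENSMUSG00000024621) on chromosome 18 (plus strand). Csf2ra (ENSMUSG00000059326) lies on chromosome 19 (61223957 to 61228429, minus strand), Csf2rb (ENSMUSG00000071713) on chromosome 15 (78325752 to 78353847, plus strand) and Csf3r (ENSMUSG00000028859) on chromosome 4 (126024550 to 126044440, plus strand). These are protein-coding genes in the GENCODE annotation of GRCm38, the mm10 build named for the count files.

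CSF1 and interleukin 34 are separate proteins that bind the same receptor tyrosine kinase, CSF1R, which macrophages need to survive and proliferate. In many tissues mesenchymal cells make the ligands and macrophages carry the receptor. CSF2RA and CSF2RB together form the receptor for GM-CSF (encoded by Csf2), with CSF2RB also serving interleukin 3 and interleukin 5, whereas CSF3R binds G-CSF (encoded by Csf3) and is characteristic of neutrophils.

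RNA was counted in single cells of brown adipose tissue (BAT) from its stromal vascular fraction (SVF), which holds the cells left once digested tissue has lost its floating adipocytes. The 4 libraries, all with the strain label C57BL6/J, were wild type (WT) aged 10 weeks, db/db aged 8 weeks (drawn as db/db 8w in the plots), db/db aged 16 weeks (db/db 16w), and mice on a high-fat diet (HFD) with a labelled age of 10 weeks. The db/db mice, named B6.BKS(D)-Leprdb/J in the study's methods, carry a mutation in the leptin receptor gene in every tissue. The diet was begun at 10 weeks of age and lasted 10 weeks by the study's account, which the labelled age does not settle. Each library was the pooled SVF of 3 mice, so there was 1 library per group, no difference between groups could be tested, and each 95% interval covers counting error only. The comparison asked which stromal cells supplied the ligands, which myeloid cells carried the receptors, and how both differed between lean and obese mice. All ratios to WT share the same WT library.

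The libraries held 28504069 to 61828295 UMIs (unique molecules) over 6517 to 18306 barcodes, of which 5462 to 11648 passed the quality limits. The median mitochondrial share of the passing cells was 4.29% in WT, 5.94% in 8-week db/db, 0.799% in 16-week db/db and 10.5% in HFD. Xist, a transcript of the inactive X chromosome, was seen in 37.7% of cells of 16-week db/db and in at most 0.421% of cells of the other libraries, although the study used male mice, so the age of 16-week db/db and this difference cannot be told apart. Between 16 and 97 barcodes were shared by any 2 libraries. Cells were gated on raw UMIs of marker lists, which contained none of the 6 genes. A cell was called stromal, macrophage or endothelial with at least 5 UMIs of that list and at least 4 times those of the other lists. This gave 4349, 6850, 1198 and 1683 stromal-gated cells and 1085, 2529, 2295 and 1521 macrophage-gated cells in WT, 8-week db/db, 16-week db/db and HFD. The ungated share was 7.42% in WT and 15% to 18% in the others. Levels are CPM, the UMIs of a gene per 1000000 UMIs of all genes in the class.

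Csf1 was almost wholly a stromal transcript and was lower in each library of obese mice than in WT. In stromal-gated cells its level was 294 CPM in WT (10325 UMIs, interval 288 to 299.7), 201 CPM in 8-week db/db (5840 UMIs, 196 to 206), 88.7 CPM in 16-week db/db (411 UMIs, 80.3 to 97.7) and 181 CPM in HFD (1717 UMIs, 173 to 190.0). WT was thus highest and 16-week db/db lowest, with no overlap between their intervals and those of the other libraries. The log2 ratio to WT was -0.55 in 8-week db/db (-0.60 to -0.50), -1.73 in 16-week db/db (-1.87 to -1.59) and -0.70 in HFD (-0.77 to -0.62). Between the db/db libraries Csf1 differed by a log2 ratio of -1.18 (-1.33 to -1.03), the older library being lower.

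The order of the libraries was the same at matched depth. After each cell was thinned at random to 1000 UMIs, Csf1 was seen in 23.0% of stromal-gated cells in WT, 17.7% in 8-week db/db, 10.3% in 16-week db/db and 15.9% in HFD. Without thinning these shares were 71.6%, 41.4%, 25.4% and 55.6%, at median depths of 6927, 3051.5, 2843.5 and 5103 UMIs per cell. Thinning left out 106, 1408, 111 and 2 stromal-gated cells in that order. Thinned macrophage-gated cells, with median depths of 5478 to 6191 UMIs before thinning, held Csf1 in at most 1.02% (WT). The share in stromal-gated cells was therefore far above that in macrophage-gated cells of each library. Neutrophil-gated cells of 8-week db/db held Csf1 in 11 of 72 thinned cells (15.3%, exact interval 7.88% to 25.7%), which overlapped the stromal share.

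The stretch before the Csf1 start is printed to show the control region of the more abundant ligand. It comes from RefSeq (GRCm38.p6, minus strand, chr3:107760470-107760719) and runs 5′ to 3′ over the 250 bases that end at the start site. Capitals mark the only match to an NF-kB motif, which sits 154 to 146 bases before the start.
Csf1: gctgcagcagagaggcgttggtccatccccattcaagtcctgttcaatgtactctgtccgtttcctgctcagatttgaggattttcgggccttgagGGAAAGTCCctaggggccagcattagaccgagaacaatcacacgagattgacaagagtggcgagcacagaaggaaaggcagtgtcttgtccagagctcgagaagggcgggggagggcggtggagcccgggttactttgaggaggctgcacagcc
NF-kB is a transcription factor of inflammatory signalling. The motif was searched on both strands as GGACTTTCC (reverse complement GGAAAGTCC) and occurred in 0.283% of 32851 such windows. The same window held 2 matches to the GC box GGGCGG, found in 32.7% of windows, and 0 to the AP-1 motif TGANTCA, found in 6.75%. These motifs were chosen after the sequence was seen, do not overlap one another here, and describe letters rather than bound sites. RefSeq windows were matched for 3 of the 6 genes: Csf1, Csf2ra and Csf3r.

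Il34, the other ligand of CSF1R, was also held by stromal cells but was higher in each library of obese mice. Its stromal level was 13.7 CPM in WT (481 UMIs, interval 12.5 to 15), 39.3 CPM in 8-week db/db (1145 UMIs, 37.1 to 41.7), 46.0 CPM in 16-week db/db (213 UMIs, 40.0 to 52.6) and 38.5 CPM in HFD (365 UMIs, 34.7 to 42.7). The WT interval lay below the other 3, while those of 8-week db/db, 16-week db/db and HFD overlapped. The log2 ratio to WT was 1.52 in 8-week db/db (1.37 to 1.68), 1.75 in 16-week db/db (1.51 to 1.98) and 1.49 in HFD (1.29 to 1.69). The older db/db library was above the younger by a log2 ratio of 0.22 (0.0069 to 0.44), but below it after thinning each cell to 1000 UMIs, at 28.5 against 36.0 CPM. After thinning, 1.18% of stromal-gated cells in WT held Il34, against 3.34%, 2.67% and 3.63% in 8-week db/db, 16-week db/db and HFD. The unthinned shares were 7.13%, 10.5%, 12.1% and 17.0%, and the thinned share in macrophage-gated cells was at most 0.131%. The pair of ligands therefore differed from WT in opposite directions in all 3 libraries of obese mice.

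**Figure D1:**
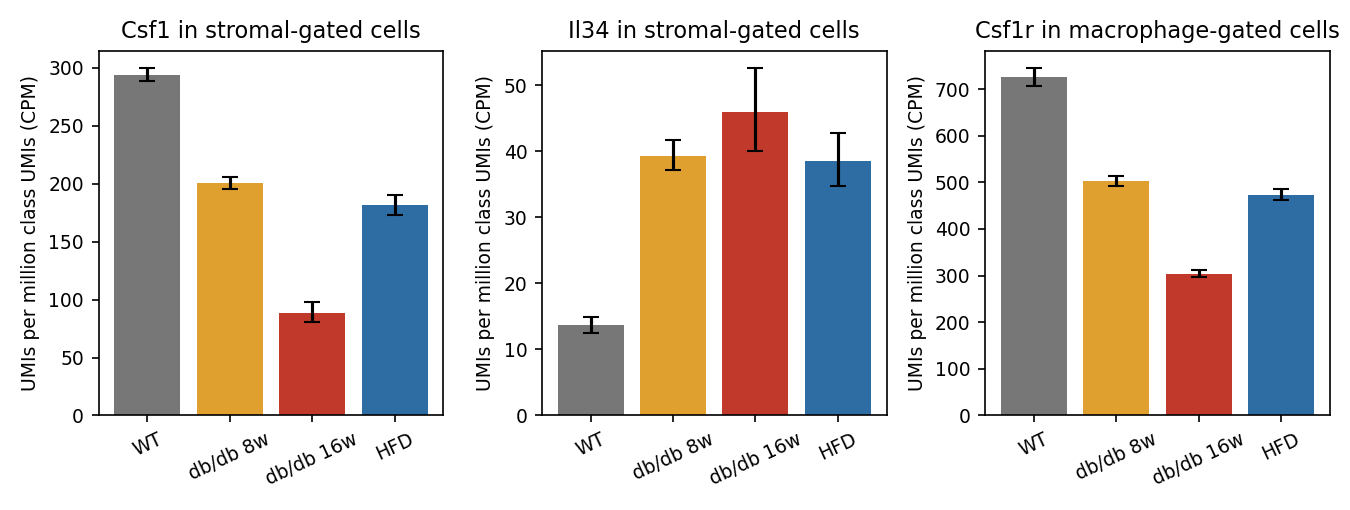
Bars give the level of Csf1 and Il34 in stromal-gated cells and of Csf1r in macrophage-gated cells in the 4 libraries, in CPM (axis from 0), and error bars are exact 95% Poisson intervals of counting error. Csf1 ran from 294 CPM in WT to 88.7 in 16-week db/db and Csf1r from 725 to 304, whereas Il34 was 13.7 in WT and 38.5 to 46.0 in the others.

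Subsets of the stromal-gated cells differed in both ligands and in number. Cells were assigned by at least 3 UMIs of a subset list and at least 2 times those of the other lists: Pi16 and Dpp4 progenitors, Col15a1 and Col4a1 preadipocytes, and an activated subset marked by Has1, Ptx3, Tnfaip6, Il6 and Cxcl1. Progenitors made up 62.2% of stromal-gated cells in WT, 24.5% in 8-week db/db, 2.50% in 16-week db/db (30 cells) and 10.4% in HFD (175 cells). Preadipocytes made up 14.5%, 43.5%, 89.1% and 81.5% in the same order. Between 19 and 332 preadipocytes and between 3 and 167 progenitors per library lay near the limit of their subset.

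Within progenitors Csf1 was at 298 CPM in WT, 248 in 8-week db/db, 142 in 16-week db/db (11 UMIs) and 185 in HFD. Within preadipocytes its level was 199 CPM in WT, 166 in 8-week db/db, 87.4 in 16-week db/db and 181 in HFD. Csf1 was thus lower than in WT in both subsets of every library of obese mice, by log2 ratios of -0.27, -1.07 and -0.69 in progenitors and -0.26, -1.19 and -0.14 in preadipocytes of 8-week db/db, 16-week db/db and HFD. Preadipocytes held less Csf1 than progenitors in WT and 8-week db/db, by a log2 ratio of -0.58 in each, whereas the ratio was -0.025 in HFD (-0.27 to 0.23). Among the ratios to WT, the interval closest to 0 was that of HFD preadipocytes (-0.25 to -0.020). In WT the activated subset (170 cells) carried the highest Csf1 level, 442 CPM, a log2 ratio of 0.57 to progenitors (0.46 to 0.67), against 267 CPM in that subset of 8-week db/db (239 cells). Only 1 activated cell was found in 16-week db/db and 8 in HFD. Summed activated-list expression over all stromal-gated cells was 1466 CPM in WT, 1101 in 8-week db/db, 161 in 16-week db/db and 729.6 in HFD. This list was lowest in the library where Csf1 was lowest, and its part in the Csf1 values was not tested. In stromal-gated cells with no UMI of the list the log2 ratios of Csf1 to WT were -0.60, -1.56 and -0.84. Such cells numbered 1406 in WT, 2953 in 8-week db/db, 971 in 16-week db/db and 500 in HFD. Selecting cells without UMIs of a list also depends on depth.

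For Il34 the subsets differed more widely. Progenitors held 18.3 CPM in WT, 108 in 8-week db/db, 142 in 16-week db/db (11 UMIs) and 75.9 in HFD, and preadipocytes held 4.19, 13.3, 45.2 and 35.2 CPM. Within each library Il34 was higher in progenitors, with a log2 ratio of preadipocytes to progenitors of -2.13 in WT, -3.02 in 8-week db/db, -1.65 in 16-week db/db and -1.11 in HFD. Both subsets were higher than in WT in every library of obese mice. The log2 ratios were 2.56, 2.96 and 2.05 in progenitors and 1.67, 3.43 and 3.07 in preadipocytes. When the subsets of each library were weighted as in WT, the log2 ratios of Il34 to WT became 2.38, 2.82 and 2.10. For this weighting activated cells were pooled with unassigned ones, which together had 26.5% of the weight. Progenitors had 58.5% of the weight, so the value of 16-week db/db rested mainly on the 11 UMIs of its 30 progenitors.

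The intervals did not separate stromal-gated cells with Il34 from those without it in their share of Csf1-positive cells. After thinning, Csf1 was seen in 24.0% of Il34-positive stromal cells of WT (12 of 50 cells, exact interval 13.1% to 38.2%) and in 23.0% of Il34-negative ones. The values in 8-week db/db were 19.2% (13.8% to 25.7%) and 17.6%, those in 16-week db/db 17.2% (5.85% to 35.8%) and 10.1%, and those in HFD 11.5% (4.74% to 22.2%) and 16.1%. In each library the interval for Il34-positive cells held the share of the negative cells.

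**Figure D2:**
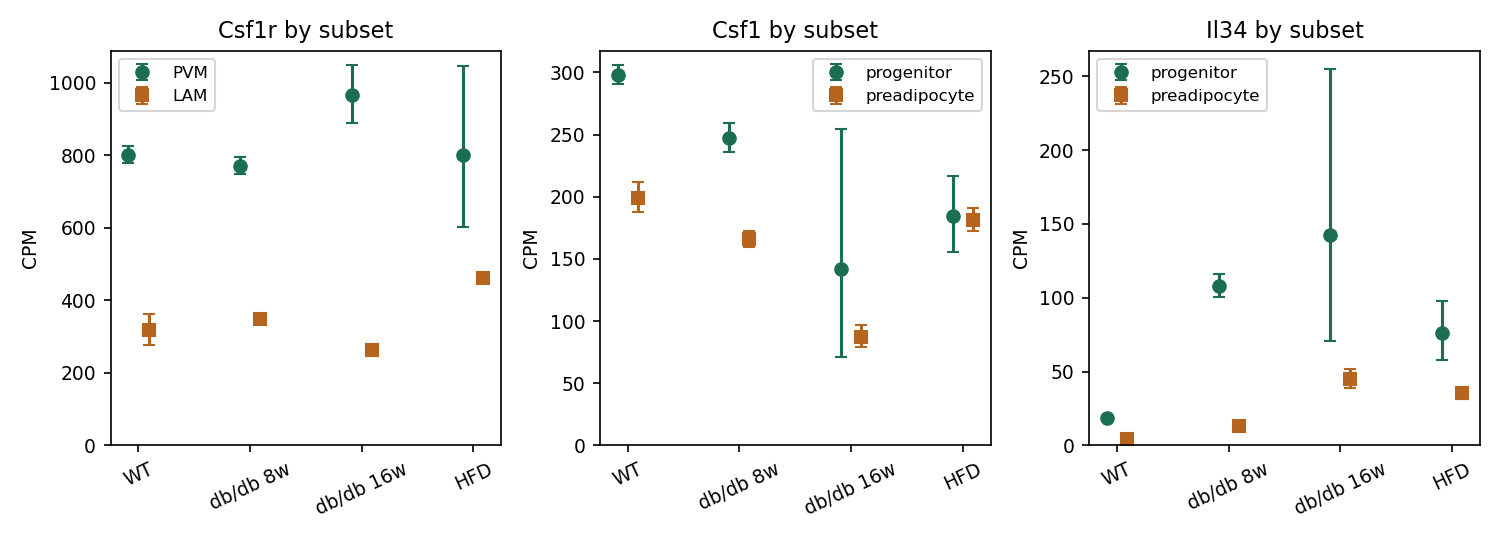
Points give the level in CPM of Csf1r in perivascular-like (PVM) and lipid-associated-like (LAM) macrophages and of Csf1 and Il34 in stromal progenitors and preadipocytes, by library, with exact 95% Poisson intervals. Csf1r lay higher in PVM than in LAM cells of each library, and Il34 was lowest in WT within both stromal subsets.

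Outside the stromal gate, ligand transcripts were few. Stromal-gated cells held 97.7% of all Csf1 UMIs in WT, 93.9% in 8-week db/db, 92.6% in 16-week db/db and 83.2% in HFD, and 98.4%, 95.3%, 89.1% and 83.1% of all Il34 UMIs. Such shares depend on how many cells a class had as well as on the level in them. Endothelial-gated cells, of which WT had 10, 8-week db/db 66, 16-week db/db 1161 and HFD 1284, held 8.77% of the Csf1 UMIs in HFD at 28.7 CPM. In 16-week db/db they held 3.15% at 8.67 CPM. Mural-gated cells, the pericytes and smooth muscle cells of vessels, were numerous enough only in 16-week db/db (51 cells), where Il34 stood at 216 CPM (16 UMIs, interval 123 to 351). Neutrophil-gated cells of 8-week db/db (93 cells) held Csf1 at 127 CPM (18 UMIs, interval 75.5 to 201). In macrophage-gated cells Csf1 was at 11.5, 5.0, 0.227 and 3.34 CPM in WT, 8-week db/db, 16-week db/db and HFD. The stromal marker list in those macrophage-gated cells moved with it, at 763, 400.5, 22.2 and 329 CPM. Per 100 UMIs of that list, Csf1 gave 1.5, 1.25, 1.02 and 1.02 UMIs there, against 0.740, 0.440, 0.179 and 0.385 in stromal-gated cells. The part of stray stromal RNA in the macrophage values was not tested.

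The distance between source and receiver cells was wide for Csf1 in each library. Stromal-gated over macrophage-gated cells gave a log2 ratio of 4.68 in WT (4.38 to 5.0), 5.33 in 8-week db/db, 8.61 in 16-week db/db (7.24 to 10.5, on 4 macrophage UMIs) and 5.76 in HFD. For Csf1r the reverse ratio, macrophage-gated over stromal-gated cells, was 6.27 in WT (6.11 to 6.43), 4.22 in 8-week db/db, 4.23 in 16-week db/db and 3.76 in HFD (3.6 to 3.93).

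**Figure D3:**
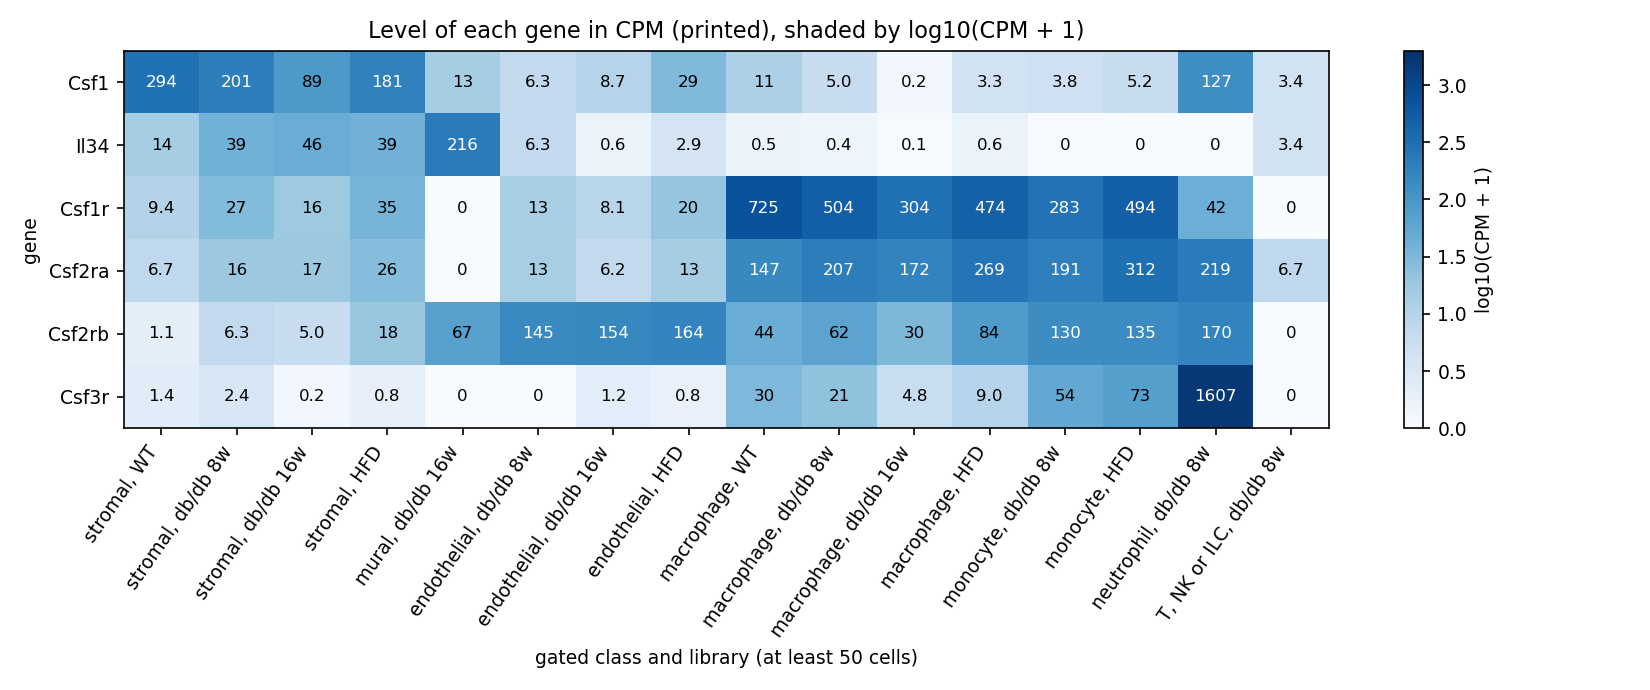
Each cell of the grid prints the level in CPM of 1 gene (rows) in 1 gated class of 1 library (columns, classes of at least 50 cells) and is shaded by log10(CPM + 1). Csf1 was at 88.7 to 294 CPM in stromal columns and at 127 in neutrophils of 8-week db/db, Il34 at 13.7 to 46.0 in stromal columns and at 216 in mural cells of 16-week db/db, Csf2rb at 145 to 164 in endothelial columns, and Csf3r was highest in neutrophils of 8-week db/db (1607 CPM).

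Csf1r, the receptor of both ligands, was a macrophage and monocyte transcript, and its level per macrophage-gated cell was lower in each library of obese mice. It stood at 725 CPM in WT (5505 UMIs, interval 706 to 745), 504 CPM in 8-week db/db (8763 UMIs, 493 to 514), 304 CPM in 16-week db/db (5348 UMIs, 296 to 312) and 474 CPM in HFD (5392 UMIs, 461 to 487). None of these intervals overlapped, with WT highest and 16-week db/db lowest. The log2 ratio to WT was -0.53 in 8-week db/db (-0.58 to -0.48), -1.25 in 16-week db/db (-1.31 to -1.20) and -0.61 in HFD (-0.67 to -0.56). After thinning, 49.6% of macrophage-gated cells held Csf1r in WT, 41.4% in 8-week db/db, 31.8% in 16-week db/db and 39.3% in HFD, and without thinning 90.3%, 86.4%, 79.5% and 88.2%. Thinning left out 6, 63, 69 and 0 macrophage-gated cells. Among thinned T, NK or ILC-gated cells, which should lack the receptor, Csf1r was seen in 2 of 36 cells in HFD (exact upper bound 18.7%) and in 0 of 86 in 8-week db/db (upper bound 4.20%), 0 of 35 in 16-week db/db and 0 of 23 in WT (upper bound 14.8%). Monocyte-gated cells held Csf1r at 283 CPM in 8-week db/db (52 cells, 74 UMIs) and 494 CPM in HFD (58 cells, 95 UMIs).

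The lower Csf1r level went with a different mix of macrophages. Lipid-associated macrophages (LAMs, here assigned by Trem2, Cd9, Gpnmb, Spp1, Lpl, Fabp5, Lgals3 and Cd36) made up 5.90% of macrophage-gated cells in WT (64 cells), 41.8% in 8-week db/db, 82.4% in 16-week db/db and 94.0% in HFD. Perivascular macrophages (PVMs, assigned by Lyve1, Folr2, Cd163, F13a1, Cbr2, Gas6, Timd4 and Cd209f) made up 81.3%, 44.7%, 8.19% and 1.05% (16 cells in HFD). From 8 to 29 LAMs and from 4 to 48 PVMs per library lay near the limit. In PVMs Csf1r was at 801 CPM in WT, 771 in 8-week db/db, 966 in 16-week db/db and 801 in HFD (54 UMIs, interval 602 to 1046). In LAMs it was at 318 CPM in WT (277 to 362), 347 in 8-week db/db, 262 in 16-week db/db and 463 in HFD. LAMs were lower than PVMs in each library, by log2 ratios of -1.34 in WT, -1.15 in 8-week db/db, -1.88 in 16-week db/db and -0.79 in HFD.

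Within a subset the difference from WT was smaller or of the other sign. In PVMs the log2 ratio of Csf1r to WT was -0.056 in 8-week db/db (-0.12 to 0.0051), 0.27 in 16-week db/db (0.14 to 0.39) and 0.00035 in HFD (-0.41 to 0.39). In LAMs it was 0.13 in 8-week db/db (-0.066 to 0.33), -0.28 in 16-week db/db (-0.47 to -0.077) and 0.54 in HFD (0.35 to 0.74). Weighted to the subset mix of WT, the log2 ratios of Csf1r to WT were -0.029, 0.25 and 0.088, so the ratio came close to 0 or above it at the mix of WT, while LAMs of 16-week db/db were below those of WT on their own. PVMs had 76.1% of the weight, so the value of HFD rested mainly on its 16 PVMs. The macrophage marker list itself was at 12616 CPM in WT, 8945 in 8-week db/db, 5415 in 16-week db/db and 8363 in HFD, and Csf1r per 100 UMIs of that list was 5.75, 5.63, 5.62 and 5.66. Measured against its own gate markers, Csf1r was nearly level across the 4 libraries.

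Depth went with Csf1r inside the libraries of obese mice. In 16-week db/db, macrophage-gated cells of 2000 to 5000 UMIs held 582 CPM and those of 10000 to 30000 UMIs 207 CPM, and in WT the same bins held 774 and 685 CPM. Cycling cells, called by 2 or more UMIs from a proliferation list, made up 6.27% of macrophage-gated cells in WT, 13.7% in 8-week db/db, 27.4% in 16-week db/db and 13.3% in HFD. Their Csf1r level was below that of non-cycling macrophages in each library, with log2 ratios of -0.30, -0.43, -0.88 and -0.46. Whether depth, cell cycle or subset set these levels was not tested.

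Csf1r UMIs in stromal-gated cells were few and moved with macrophage markers there. The stromal level was 9.43 CPM in WT, 27.1 in 8-week db/db, 16.2 in 16-week db/db and 34.9 in HFD. The macrophage list, of which all 8 genes were detected in these cells, was at 121, 364, 199 and 466 CPM in the same order. Csf1r came to 7.81, 7.45, 8.13 and 7.49 UMIs per 100 UMIs of the list in stromal-gated cells. These values lay above those of 5.62 to 5.75 in macrophage-gated cells. The part of stray macrophage RNA and of doublets was not tested beyond leaving out predicted doublets. Leaving them out moved the Csf1r ratio of macrophage-gated to stromal-gated cells from 6.27 to 7.12 in WT and from 3.76 to 4.95 in HFD on the log2 scale.

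Csf2ra, the ligand-binding chain of the GM-CSF receptor, was higher in macrophage-gated cells of each library of obese mice. Its level was 147 CPM in WT (1119 UMIs), 207 CPM in 8-week db/db (3611 UMIs), 172 CPM in 16-week db/db (3017 UMIs) and 269 CPM in HFD (3066 UMIs). WT was lowest and HFD highest. The log2 ratio to WT was 0.49 in 8-week db/db (0.40 to 0.59), 0.22 in 16-week db/db (0.12 to 0.32) and 0.87 in HFD (0.77 to 0.97). Csf2ra thus differed from WT in the opposite direction to Csf1r in the same cells. LAMs held more of it than PVMs in each library, at 194 against 141 CPM in WT, 245 against 149 in 8-week db/db, 177 against 116 in 16-week db/db and 273 against 104 (7 UMIs) in HFD. Within PVMs the intervals of the ratio to WT held 0 in all 3 libraries, and within LAMs they lay above 0 in 8-week db/db (0.089 to 0.60) and HFD (0.25 to 0.75). In 16-week db/db the log2 ratio was -0.13 in LAMs (-0.38 to 0.13) and -0.28 in PVMs (-0.66 to 0.074). The higher level of that library was thus not seen within either subset.

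The shares of Csf1r-positive cells among macrophage-gated cells with and without Csf2ra had overlapping intervals in 3 libraries. After thinning, Csf1r was seen in 50.7% of Csf2ra-positive macrophage-gated cells of WT and in 49.4% of the negative ones, in 30.7% and 31.9% in 16-week db/db, and in 38.0% and 39.7% in HFD. In 8-week db/db the share was 34.1% of positive cells (29.4% to 39.0%) and 42.8% of negative cells (40.6% to 44.9%), and these intervals did not overlap.

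Csf2rb, the signalling chain shared by GM-CSF, interleukin 3 and interleukin 5, had no common direction in macrophages. Its level in macrophage-gated cells was 43.9 CPM in WT (333 UMIs), 61.7 in 8-week db/db (1073 UMIs), 30.5 in 16-week db/db (536 UMIs) and 83.7 in HFD (953 UMIs). The log2 ratio to WT was 0.49 in 8-week db/db (0.31 to 0.67), -0.53 in 16-week db/db (-0.73 to -0.32) and 0.93 in HFD (0.75 to 1.12). In LAMs its level was 111 CPM in WT (78 UMIs), 74.6 in 8-week db/db, 29.9 in 16-week db/db and 83.2 in HFD. In PVMs it was 33.1 CPM in WT (191 UMIs) and 39.7 in 8-week db/db (206 UMIs). PVMs of 16-week db/db held 48.6 CPM (29 UMIs) and those of HFD 59.4 CPM (4 UMIs). The levels in libraries of obese mice were thus below WT in LAMs and above it in PVMs, there partly on few UMIs. For these differences within subsets no intervals of the ratio to WT were computed.

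Endothelial-gated cells held more Csf2rb than macrophages and little of its partner Csf2ra. In endothelial-gated cells Csf2rb was at 145 CPM in 8-week db/db (23 UMIs), 154 CPM in 16-week db/db (249 UMIs) and 164 CPM in HFD (1034 UMIs), whereas Csf2ra was at 12.6 (2 UMIs), 6.19 (10 UMIs) and 13.2 CPM (83 UMIs). Within a library the endothelial level of Csf2rb exceeded the macrophage level by a log2 ratio of 1.23 in 8-week db/db (0.57 to 1.83), 2.34 in 16-week db/db (2.12 to 2.56) and 0.97 in HFD (0.84 to 1.10). Endothelial-gated cells held 35.4% of all Csf2rb UMIs in HFD and 25.9% in 16-week db/db, against 32.7% and 55.8% in macrophage-gated cells. After thinning, 13.9% of endothelial-gated cells held Csf2rb in 16-week db/db and 13.3% in HFD, and without thinning 17.4% and 43.8%, at median depths of 1107 and 4462.5 UMIs. The macrophage list in endothelial-gated cells was at 202, 47.1 and 245 CPM, under the level of 5415 to 12616 CPM in macrophage-gated cells. Dendritic-gated cells held Csf2rb at 269 CPM in 8-week db/db (31 cells) and 279 CPM in HFD (33 cells). The close copy Csf2rb2 (chromosome 15, 78282507 to 78305721, minus strand), a mouse-specific interleukin 3 receptor chain, shared 18.4% of the 50-base words of the Csf2rb transcript and 0% of those in its last 500 bases, where 3′ reads fall. Some reads outside that end could therefore fit both genes. In macrophage-gated cells Csf2rb2 was at 13.4, 17.6, 10.2 and 33.6 CPM in WT, 8-week db/db, 16-week db/db and HFD.

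Csf3r, the G-CSF receptor, was lower in macrophage-gated cells of each library of obese mice and far higher in neutrophils. Its macrophage level was 29.8 CPM in WT (226 UMIs), 21.1 in 8-week db/db (367 UMIs), 4.83 in 16-week db/db (85 UMIs) and 9.05 in HFD (103 UMIs). The log2 ratio to WT was -0.50 in 8-week db/db (-0.74 to -0.25), -2.62 in 16-week db/db (-3.00 to -2.26) and -1.72 in HFD (-2.07 to -1.38). With a gate on distinct markers that of 8-week db/db was -0.015. PVMs held Csf3r at 30.5 CPM in WT (176 UMIs) and 40.1 in 8-week db/db (208 UMIs). PVMs of 16-week db/db held 3 UMIs and those of HFD 1 UMI. LAMs held it at 28.5 CPM in WT (20 UMIs), 10.5 in 8-week db/db, 4.61 in 16-week db/db and 8.98 in HFD. Csf3r is a defining receptor of neutrophils, and the 93 neutrophil-gated cells of 8-week db/db held it at 1607 CPM (227 UMIs, interval 1405 to 1830), which was 30.5% of all Csf3r UMIs in that library. The neutrophil list in macrophage-gated cells was at 155, 89.9, 53.7 and 13.7 CPM in WT, 8-week db/db, 16-week db/db and HFD, and its part in these Csf3r values was not tested. WT had 5 neutrophil-gated cells, 16-week db/db 9 and HFD 0. Monocyte-gated cells held Csf3r at 53.6 CPM in 8-week db/db and 72.8 CPM in HFD (14 UMIs each).

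**Figure D4:**
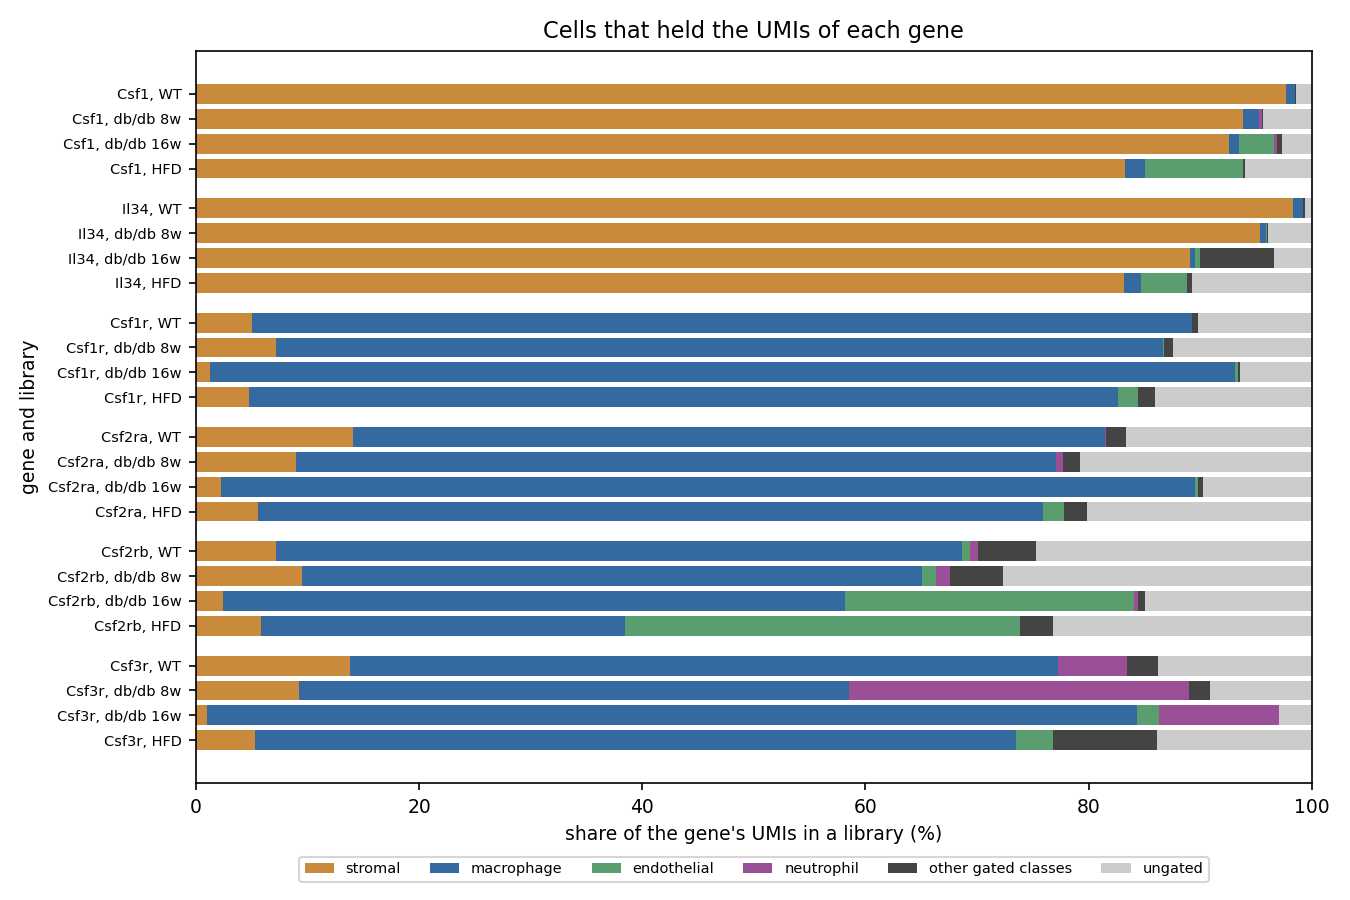
Each bar splits all UMIs of 1 gene in 1 library by the class of the cells that held them, in percent. Stromal-gated cells held 83.1% to 98.4% of the ligand UMIs, macrophage-gated cells 77.8% to 91.9% of the Csf1r UMIs, and endothelial-gated cells 35.4% of the Csf2rb UMIs in HFD.

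A 2-fold difference from WT was also counted over all genes with at least 10 CPM in either library of a pair, to place single genes among the rest. In stromal-gated cells 4.93% of all measured genes were at least 2-fold higher in 8-week db/db, 13.8% in 16-week db/db and 11.3% in HFD, and 2.73%, 14.8% and 7.19% were at least 2-fold lower. Il34, above 10 CPM in all 4 libraries, was among the higher genes in each comparison, and Csf1 was among the lower ones in 16-week db/db only. Csf1r (8-week db/db and HFD), Csf2ra (all 3 libraries) and Csf2rb (HFD) were also past 2-fold, but each was under 10 CPM in WT and entered only through the library where it was high, so nothing is read from their number. Their stromal levels stood beside a macrophage list of 121 CPM in WT and 364, 199 and 466 CPM in 8-week db/db, 16-week db/db and HFD. Per 100 UMIs of that list, Csf2ra gave 5.52, 4.48, 8.34 and 5.48 UMIs in stromal-gated cells and Csf2rb 0.920, 1.73, 2.49 and 3.83. Macrophage-gated cells gave 1.17, 2.32, 3.17 and 3.22 UMIs for Csf2ra and 0.348, 0.689, 0.563 and 1.001 for Csf2rb. The stromal values of both genes lay above these in each library. The part of macrophage RNA in the stromal values was not tested. In macrophage-gated cells 5.76%, 20.7% and 15% of all genes were at least 2-fold higher and 5.91%, 25.2% and 10.9% lower in 8-week db/db, 16-week db/db and HFD. Csf1r, over 10 CPM in all 4 libraries, was past 2-fold only in 16-week db/db, where it was lower. Csf1 in all 3 libraries and Csf3r in 16-week db/db and HFD were past 2-fold lower as well, but entered only through WT, and Csf2ra and Csf2rb were within 2-fold throughout. The median log2 ratio of all measured genes was between -0.11 and 0.18 in the 6 comparisons.

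Other genes of these pathways were taken from a list of 45: ligands and receptors of the same families, transcription factors of the myeloid lineage, signalling proteins and feedback targets. In macrophage-gated cells 37 of them reached 10 CPM, with 6 at least 2-fold higher and 3 lower in 8-week db/db, 4 and 17 in 16-week db/db, and 5 and 10 in HFD. The shares over all genes, higher and lower, were 5.76% and 5.91%, 20.7% and 25.2%, and 15% and 10.9%, with the limit of 10 CPM applied to each pair of libraries rather than to all 4. Of the 8 transcription factors, 1, 5 and 4 were at least 2-fold lower and 0 higher in 8-week db/db, 16-week db/db and HFD. Of 8 feedback genes and targets measured, 1, 5 and 3 were lower and 3, 1 and 1 higher. Maf, a factor of resident macrophages, was at 1189, 551, 172 and 164 CPM in WT, 8-week db/db, 16-week db/db and HFD. Sdc1, a proteoglycan that can bind interleukin 34, was at 5.14 CPM in WT and 61.8, 85.0 and 74.6 CPM in the others. Ccnd1, a cyclin induced by growth factors, was at 10.7, 42.8, 148 and 94.3 CPM. Fyn, a Src-family kinase, was at least 2-fold higher in all 3 libraries (14.6 CPM in WT, 31.0 to 52.4 CPM in the others), and Flt3l, the ligand of FLT3, at least 2-fold lower (12.5 CPM against 4.66 to 6.21 CPM). Sdc1, under 10 CPM in WT, reached the limit only through the libraries of obese mice, and Flt3l only through WT. Nothing is read from their part in the counts.

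In stromal-gated cells 35 of the 45 reached 10 CPM, with 10 at least 2-fold higher and 2 lower in 8-week db/db, 8 and 11 in 16-week db/db, and 10 and 5 in HFD. Over all genes the shares higher and lower were 4.93% and 2.73%, 13.8% and 14.8%, and 11.3% and 7.19%. Several of the higher genes were under 10 CPM in WT and entered through the libraries of obese mice. Of 10 feedback genes and targets, 2, 7 and 3 were lower and 1 higher in each library. Lower in all 3 libraries were Socs3, a feedback inhibitor of cytokine signalling (706, 302, 140.1 and 88.7 CPM in WT, 8-week db/db, 16-week db/db and HFD), and Myc (113, 51.2, 24.8 and 43.8 CPM). Of the genes higher in all 3, Sdc1 went from 1.94 CPM in WT to 24.6, 44.9 and 45.1 CPM. The remaining ones were Tyrobp, Spi1, Dok2, Ptpn6, Bcl2a1b, Irf8 and Lyn, which are known from leukocytes. Tyrobp, for example, was at 16.3 CPM in WT and 116, 151 and 182 CPM in 8-week db/db, 16-week db/db and HFD. The macrophage list in stromal-gated cells was at 121 CPM in WT and 364, 199 and 466 CPM in the same order. That list and Bcl2a1b were lower in 16-week than in 8-week db/db, whereas the other leukocyte genes named here were higher. The part of macrophage RNA in these values was not tested.

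The ligands of the other receptors, named after their values were seen, were detected almost wholly in WT and 8-week db/db. Csf3 was held mainly by macrophage-gated cells, at 22.5 CPM in WT (171 UMIs), 18.7 CPM in 8-week db/db (325 UMIs), 0.0569 CPM in 16-week db/db (1 UMI) and 0.351 CPM in HFD (4 UMIs). Its log2 ratio to WT was -0.27 in 8-week db/db (-0.54 to 0.0046), -8.63 in 16-week db/db (-13.9 to -6.13) and -6.0 in HFD (-7.90 to -4.62). Csf2 totalled 240 UMIs in WT, 275 in 8-week db/db, 17 in 16-week db/db and 4 in HFD over all passing cells. Ungated cells held 85 of them in WT and 164 in 8-week db/db, stromal-gated cells 60 and 35, and macrophage-gated cells 12 and 52. The 24 T, NK or ILC-gated cells of WT held 83 (675 CPM), of which 79 were in 1 cell, and the 90 of 8-week db/db held 24 (80.6 CPM), while the 49 of 16-week db/db and the 36 of HFD held 0, which at 3 counts allows up to 34.7 and 28.3 CPM.

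Likeness of pattern was measured over the 16 class and library groups of at least 50 cells, as Pearson's r of log2(CPM + 10). Closest to Csf1r were Ccl9 (0.98), Unc93b1 (0.97), Ly86 (0.97), Lyz2 (0.97) and Clec4a3 (0.97). Near Csf1 in pattern were Kif21a (0.96), Wipi1 (0.94), Epb41l3 (0.93) and Arhgap24 (0.92). The 16 groups shared libraries, and the r values describe these groups only.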

How the data were processed

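The deposited files hold raw counts: per the file headers, UMIs per gene and barcode that the authors made with Cell Ranger. The submitters' processing notes name Cell Ranger 7.1.0 and mm10, whereas the file header reads 6.0.0. Counts were analysed with python 3.11.15, numpy 2.4.6, scipy 1.17.1, pandas 2.3.3 and scanpy 1.11.5. A barcode was kept when its number of detected genes lay between 250 and 6000, its UMI total between 500 and 30000, and its mitochondrial share below 15%. The stromal, macrophage and endothelial gates used lists of 6, 8 and 6 markers. Less frequent classes (mural, neutrophil, monocyte, dendritic, mast or basophil, T, NK or ILC, and B cells) needed at least 3 UMIs over 2 distinct markers (3 for monocytes and neutrophils) and under 10 UMIs of each main list. The genes and lists were chosen with earlier results of these data known.

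Levels are summed UMIs over class UMIs with exact 95% Poisson intervals, shares have exact binomial (Clopper-Pearson) intervals, and ratios have exact conditional binomial intervals. These cover counting error only. A level of 0 allows up to 3 counts. With 1 library per group no test between groups was run. Shares were given after each cell was thinned to 1000 UMIs, with a fixed random seed, leaving out shallower cells. Doublets were predicted with Scrublet in scanpy at an assumed rate of 0.8% per 1000 cells, which marked 5.49% to 15.2% of cells per library, and were left out only in an alternative. Only the 2-fold call and the intervals of the ratios were tested on simulated data, made from summed counts of stromal-gated cells. The text names the 6 genes, the pathway genes at least 2-fold different from WT in 1 direction in all 3 libraries of obese mice, and the 5 genes closest in pattern to Csf1 and Csf1r among genes reaching 20 CPM. Of these, 1 gene that this rule selects for Csf1 is not reported here. Alternatives covered the gates, quality limits, doublets, thinning and per-cell means. A further 3, a pan-myeloid gate, stromal cells without activated-list UMIs, and the subset mix of WT, were chosen after seeing the data.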

Additional observations from a re-analysis of the deposited data

Results flagged for a closer look

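The ratio of Csf2rb to WT in macrophage-gated cells had opposite signs among the libraries of obese mice, with log2 ratios of 0.49 in 8-week db/db (0.31 to 0.67), -0.53 in 16-week db/db (-0.73 to -0.32) and 0.93 in HFD (0.75 to 1.12). Within LAMs the levels of all of these libraries were below that of WT, and within PVMs all were above it, as given above. The PVM levels rested on 191 UMIs in WT, 206 in 8-week db/db, 29 in 16-week db/db and 4 in HFD. No intervals were computed for the ratios to WT within these subsets. The ratio of Csf3r in stromal-gated cells also had opposite signs, on few UMIs. It was 0.76 in 8-week db/db (69 UMIs, 0.22 to 1.32) and -2.69 in 16-week db/db (1 UMI, -8.03 to -0.15), where WT had 49 UMIs. The neutrophil list in stromal-gated cells was at 262 CPM in WT, 69.0 CPM in 8-week db/db and 19.4 CPM in 16-week db/db, and its part in the Csf3r values was not tested. All of these ratios share the WT library, and the differences between them were not tested.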

How the results depend on the processing

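Apart from weighting to the subset mix of WT, 177 log2 ratios to WT or between classes were recomputed under the alternatives. All had the direction given above, and 118 lay within the interval given there. The Il34 ratio between the db/db libraries was not among them and changed direction after thinning, as given above. Among the 9 ratios weighted to the subset mix of WT, 7 had the same direction.

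Weighting to the subset mix of WT turned Csf1r in macrophage-gated cells to 0.25 in 16-week db/db and 0.088 in HFD, and left -0.029 in 8-week db/db. Csf1 in stromal-gated cells became -0.36 in 8-week and -1.27 in 16-week db/db, and Il34 became 2.38, 2.82 and 2.10 in 8-week db/db, 16-week db/db and HFD. Activated stromal cells were pooled with unassigned ones here, so their own share was not matched to WT. The ligand values of 16-week db/db rested mainly on 30 progenitors, and that of Csf1r in HFD on 16 PVMs.

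Thinned to 1000 UMIs, the ratios to WT in 8-week db/db were -0.49 for Csf1, -0.36 for Csf1r, 0.27 for Csf2ra and 0.16 for Csf2rb. In 16-week db/db they were -1.29 for Csf1, 1.19 for Il34, -0.82 for Csf1r, -0.26 for Csf2rb and -1.61 for Csf3r, and in HFD -0.60 for Csf1 and -0.44 for Csf1r. The ratio of stromal-gated to macrophage-gated cells for Csf1 was 5.78 in 8-week db/db and could not be computed in 16-week db/db, where thinned macrophage-gated cells held 0 UMIs. That of macrophage-gated to stromal-gated cells for Csf1r was 6.05 in WT, 5.53 in 16-week db/db and 4.16 in HFD.

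Means of per-cell CPM gave, in 8-week db/db, -0.66 for Csf1, -0.33 for Csf1r, 0.29 for Csf2ra and -0.12 for Csf3r. They gave -1.55, -0.81, -0.15 and -1.97 for Csf1, Csf1r, Csf2rb and Csf3r in 16-week db/db, and -0.45 for Csf1r in HFD. The source ratio of Csf1 became 4.30 in WT and the receiver ratio of Csf1r 5.99 in WT, 3.57 in 8-week db/db, 5.68 in 16-week db/db and 4.31 in HFD.

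A gate on distinct markers gave -0.49 for Csf1, -0.44 for Csf1r, 0.23 for Csf2ra and -0.015 for Csf3r in 8-week db/db, and 0.075 and 0.71 for Csf2ra in 16-week db/db and HFD. This gate left 104 macrophage-gated cells in WT, the reference of each ratio, against 1085 in the main gate. In 8-week db/db it left 1039 against 2529. The receiver ratio of Csf1r was then 7.24, 5.51, 6.19 and 5.12 in WT, 8-week db/db, 16-week db/db and HFD. A stricter gate gave 6.71, 5.06, 4.98 and 4.42, the Csf1 source ratio 6.29 in HFD, and Csf2rb -0.31 in 16-week db/db. Without predicted doublets the receiver ratio was 7.12, 5.26, 5.52 and 4.95, and Csf1 -1.59 in 16-week db/db. Without the mitochondrial limit Csf1 and Csf1r were -0.79 and -0.50 in HFD, and the receiver ratio was 3.92 in 8-week db/db.

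Of the alternatives chosen after seeing the data, the pan-myeloid gate gave -0.17 for Csf3r and 4.05 for the receiver ratio in 8-week db/db, and -0.83 for Csf2rb in 16-week db/db. Stromal cells with no activated-list UMI gave -1.56 for Csf1 in 16-week db/db, and -0.84 for Csf1 and 1.27 for Il34 in HFD. The cause of these shifts was not tested.

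No paired analysis was possible because each group had 1 library and no replicate numbers are shared. The libraries differed in depth, mitochondrial share, Xist and subset mix as well as in genotype, age and diet, and these cannot be told apart. Less frequent classes rested on few UMIs.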
